A study of Mus musculus with 6 samples.

Results

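Inflammatory cytokines, chemokines and the inhibitors of their signalling were followed in the inguinal white fat of mice after long sleep disturbance and recovery. The 10 genes were chosen by name and role, with earlier results of these data known: the cytokines Tnf, Il1b and Il6, the chemokines Ccl2, Ccl7, Cxcl1 and Cxcl12, and the inhibitors Nfkbia, Tnfaip3 and Socs3. Each symbol matched 1 row of the deposited table, so 10 of its 25894 genes are described. The study sequenced RNA from the inguinal fat of 6 female C57BL/6N mice, described as 15 weeks old, with 1 library for each mouse. In 3 mice sleep was fragmented for 8 weeks and then left to recover for 2 weeks (fragmented, recovered 1 to 3), and 3 mice were controls (control 1 to 3). All 6 mice were fasted for 10 h before the fat was taken. The labels do not describe how the controls were housed, and no group was sampled at the end of fragmentation, so the comparison covers the state after recovery sleep and not the response to fragmentation itself.

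TNF, IL-1β and IL-6 are secreted proteins that carry inflammatory signals between cells. TNF and IL-1β release the transcription factor NF-κB from its inhibitors, and NF-κB then switches on cytokine and chemokine genes as well as Nfkbia and Tnfaip3, whose products end the signal. IL-6 signals through the receptor chain gp130 to the transcription factor STAT3, which switches on Socs3, the inhibitor of that receptor complex. In fat, macrophages and other immune cells, fibroblast-like progenitors, endothelium and adipocytes can each make some of these messages, and chemokines such as CCL2 draw in monocytes.

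The promoter sequences of the inhibitors, and of Cxcl1 and Il6 among the secreted factors, show the letters that NF-κB and STAT proteins are known to recognise. RefSeq promoter entries on build GRCm38.p6 matched 8 of the 10 genes by symbol, in 9 windows. Ccl2 and Ccl7 had no entry and were not searched. The 250 bases before each start site were searched on both strands for a form of the NF-κB motif, as capitalised below in Nfkbia, Tnfaip3, Cxcl1 and Il6, and for TTCNNNGAA, a STAT motif. The first was found in 4 of the genes (Nfkbia, Tnfaip3, Cxcl1 and Il6) and in 4.65% of all 32817 promoter windows of that length. The second was found in Socs3 alone among the genes and in 7.01% of all windows, and Tnf, Il1b and Cxcl12 held neither. The stretches that hold these matches are given 5′ to 3′ on the strand of the gene, with the matches in capitals.
Nfkbia, chr12:55492648-55492706, minus strand: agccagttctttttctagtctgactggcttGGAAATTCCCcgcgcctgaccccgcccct
Tnfaip3, chr10:19015411-19015452, minus strand: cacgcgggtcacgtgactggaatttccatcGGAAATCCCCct
Tnfaip3, other start site, chr10:19012014-19012083, minus strand: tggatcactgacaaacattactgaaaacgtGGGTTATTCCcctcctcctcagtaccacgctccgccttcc
Cxcl1, chr5:90891126-90891214, plus strand: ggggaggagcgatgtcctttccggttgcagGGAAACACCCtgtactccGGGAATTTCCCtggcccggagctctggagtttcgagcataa
Il6, chr5:30013040-30013109, plus strand: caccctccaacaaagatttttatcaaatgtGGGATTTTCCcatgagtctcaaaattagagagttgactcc
Socs3, chr11:117969482-117969550, minus strand: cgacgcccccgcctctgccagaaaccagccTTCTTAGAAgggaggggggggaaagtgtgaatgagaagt

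The run of 11 capitals in Cxcl1 holds 2 overlapping matches, 1 on each strand. A match of letters is a description of the sequence, and no binding was measured in these mice. The genes with the same motif did not share 1 pattern across the libraries: Nfkbia, Tnfaip3 and Cxcl1, described in turn, each ordered the 6 mice differently.

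Values are reads per gene divided by 1 size factor for each library, called normalised values. The reads recovered from them summed to between 15610201 and 19703569 for each library. The tissue label was checked against 7 adipocyte genes, among them Adipoq, Plin1 and Fabp4, and all 7 were above 0 in every library. Their sums were uneven, at 423400, 254100 and 248300 in fragmented, recovered 1 to 3 and 352300, 128600 and 157500 in controls 1 to 3. Libraries also stood apart in genes of other cell types. B and plasma cell markers summed to 12530, 31300 and 11740 in fragmented, recovered 2, control 2 and control 3, and to between 357.5 and 786.9 in the other libraries. Skeletal muscle markers summed to 65100 in fragmented, recovered 1, to 8686 in control 2 and to at most 1450 in the others. In bulk tissue, a lower value from fewer cells of a type and from less RNA in each cell cannot be told apart.

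None of the 10 genes differed between the groups beyond the spread of the mice. By limma on log2(value + 1), with Benjamini-Hochberg adjustment over 22290 genes, 0 of the 10 passed an FDR of 0.05, and 0.0% of all genes did. None had an unadjusted p under 0.05, against 5.39% of all genes tested, and edgeR on the recovered reads gave 0 of the 9 genes it tested at either threshold, against 4.67% of its 16141 genes at an unadjusted p under 0.05. In no gene did the groups separate without overlap, against 8.59% of all genes. The difference was above 0 in 5 genes and below 0 in 5, and 51.6% of all genes tested were above 0. Exact two-sided permutation tests over the 6 mice gave p-values from 0.2 to 1.0, where 3 mice against 3 cannot give less than 0.1. The labels call each library a separate mouse, so these tests measure the spread between mice.

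**Figure D1:**
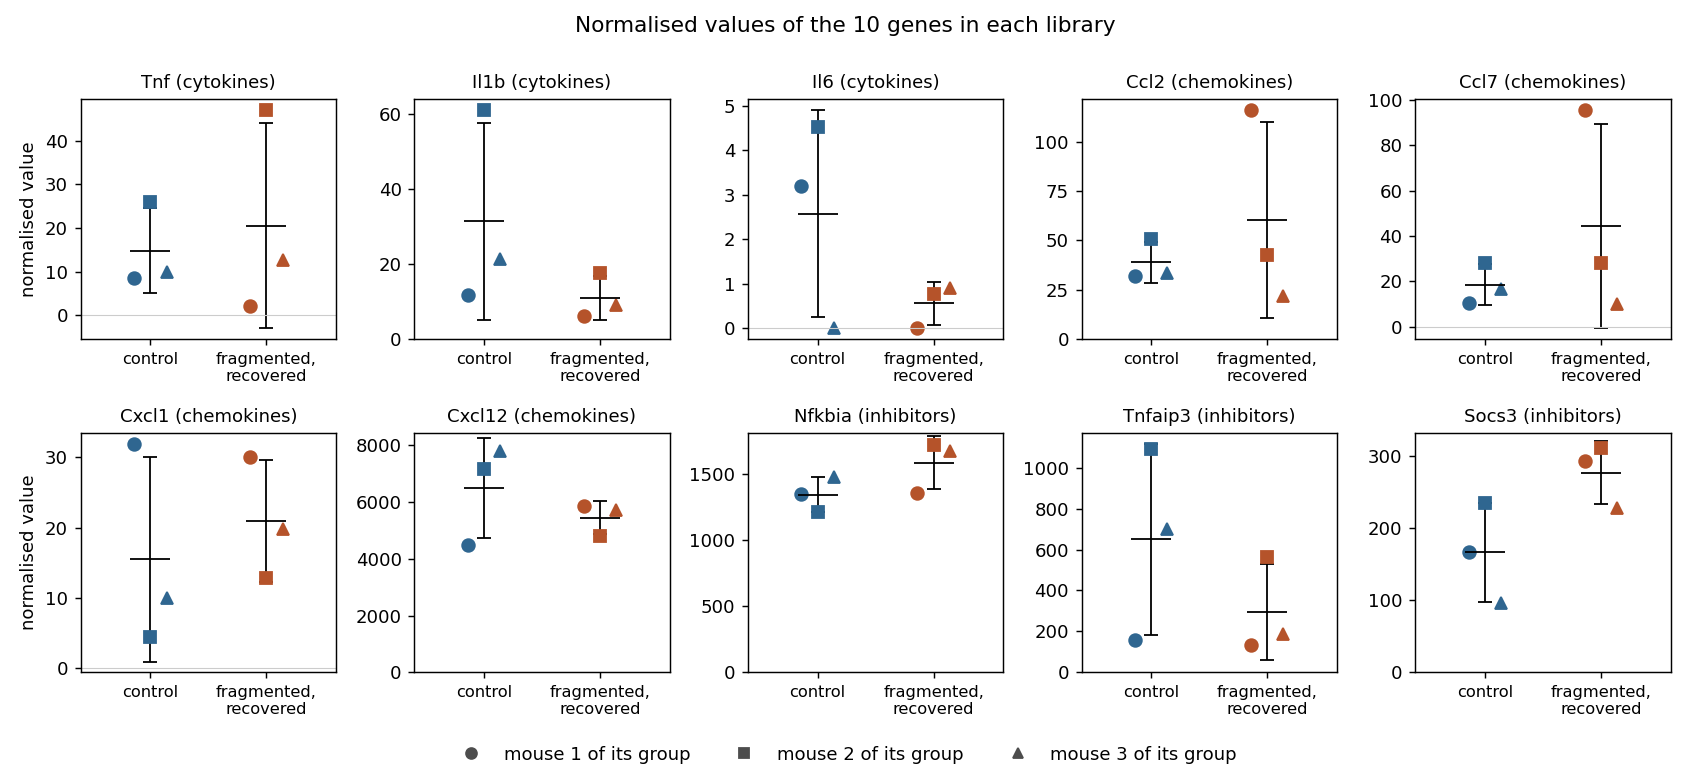
Normalised values (linear axis, 1 panel for each gene) of the 10 genes in the 3 control and 3 fragmented, recovered mice. Points are single mice, the horizontal bar is the group mean and the vertical bar the SD. The groups overlap in every panel, and fragmented, recovered 1 stands above the other 5 mice for Ccl2 (116.1) and Ccl7 (95.4).

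Levels of different genes were set side by side per kilobase of exon, with lengths from GENCODE M21, an annotation of another build than the mm8 named for these data. Nfkbia was the most abundant at a mean of 910.9 normalised units per kb over the 6 mice, followed by Cxcl12 at 729.5, and their ranges overlapped. Socs3 at 76.8, Tnfaip3 at 65.3, Ccl2 at 43.4 and Ccl7 at 39.3 formed the middle of the order, and Il1b at 11.1, Tnf at 10.8 and Cxcl1 at 9.72 lay lower. Il6 had 0.64 per kb. Neighbours in this order had overlapping ranges except at 2 steps, between Cxcl12 (lowest library 549.8) and Socs3 (highest 107.6), and between Cxcl1 (lowest 2.41) and Il6 (highest 1.86). The inhibitors and Cxcl12 were thus measured with many reads, and the cytokines with few.

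**Figure D2:**
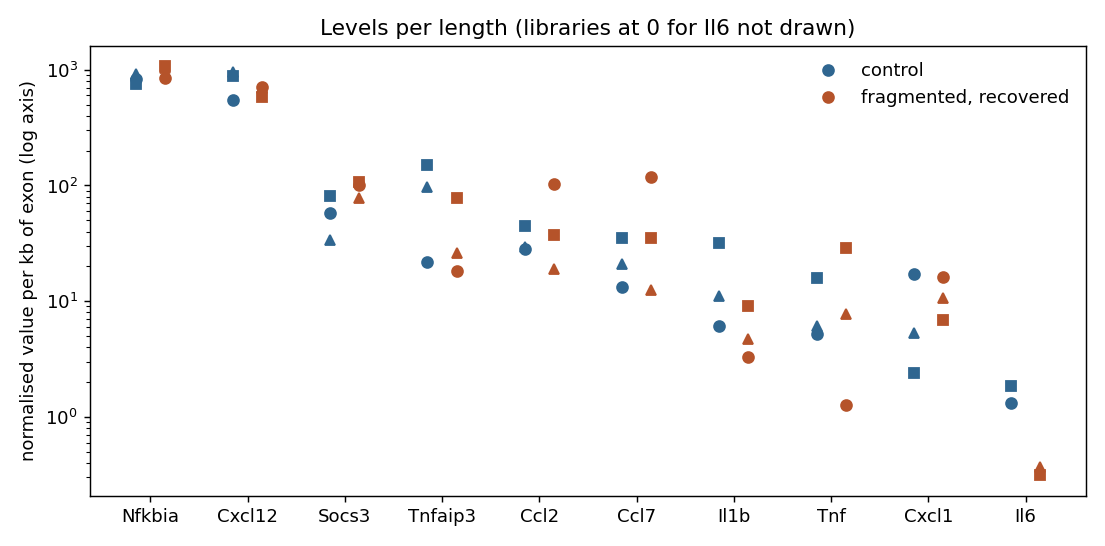
Normalised values per kb of exon (log axis) of the 10 genes in order of their mean, 1 point for each mouse (circle, square and triangle for mice 1, 2 and 3 of each group). Nfkbia and Cxcl12 lie above all other genes, and the 2 libraries without an Il6 read are not drawn.

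Among the cytokines, Tnf (ENSMUSG00000024401), which encodes the ligand of the TNF receptors, had normalised values of 2.07, 47.0 and 12.6 in fragmented, recovered 1 to 3 and of 8.53, 26.0 and 10.0 in controls 1 to 3. The fragmented, recovered mice held both the lowest and the highest value, from 2 and 62 reads. The mean was 20.6 ± 23.5 (SD, n = 3) against 14.9 ± 9.68, while the log2 difference was -0.16 (SE 1.02, limma adjusted p = 0.965). The ratio of means, 1.39, and the log2 difference thus had opposite signs, and the log2 difference was 0.52 with edgeR, 0.48 with DESeq2 and 0.85 without fragmented, recovered 1. No direction can be given for Tnf.

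Il1b (ENSMUSG00000027398), the gene of the inflammasome-processed cytokine IL-1β, had values of 6.22, 17.5 and 9.03 in the fragmented, recovered mice and of 11.7, 61.0 and 21.2 in controls. Fragmented, recovered 1 and 3 lay below all controls, fragmented, recovered 2 lay above control 1, and control 2 stood highest. The mean was 10.9 ± 5.84 (SD, n = 3) against 31.3 ± 26.2, a log2 difference of -1.24 (SE 0.79, limma adjusted p = 0.697). It was -0.61 without control 2 and -0.30 without fragmented, recovered 1 and control 2, the libraries of each group with the highest muscle marker sums. Neutrophils are a known source of Il1b, and neutrophil markers moved with it: their sum was 9012 in control 2, 1104 in control 3 and 759.3 in fragmented, recovered 2, against 61.4 to 169 in the other 3 libraries. All 7 neutrophil markers had log2 differences below 0, with none at an unadjusted p under 0.05. Cxcr2, Ly6g and Ngp, which define neutrophils, were each at 0 in at least 1 of the other 3 libraries. The part of neutrophils in the Il1b values was not tested.

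Il6 (ENSMUSG00000025746), the gene of the cytokine IL-6, was close to the limit of detection. Fragmented, recovered 1 to 3 had 0, 1 and 1 reads, and controls 1 to 3 had 3, 4 and 0. A library with 0 reads allows up to 3 reads, a normalised value of 3.11 in fragmented, recovered 1 and 3.34 in control 3. Summed over each group there were 2 reads against 7, a ratio of 0.229 after scaling, with an exact 95% interval from 0.0232 to 1.2 that covers counting error only. A difference in Il6 was not detectable at this depth.

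The receptors for these cytokines were abundant in comparison, and they and the chemokine receptors were chosen by their role after their values were seen. Tnfrsf1a, the main signalling receptor for TNF, had values of 2968, 2401 and 2434 in the fragmented, recovered mice and 2316, 1717 and 2133 in controls, a log2 difference of 0.34 (SE 0.23, limma adjusted p = 0.700). For Tnfrsf1a every fragmented, recovered value exceeded every control value, which held for 5.02% of all genes. Il1rap, the accessory chain of the IL-1 receptor, had values of 133.7, 191.9 and 192.3 against 203.6, 353.8 and 385.4, a log2 difference of -0.83 (SE 0.35, limma adjusted p = 0.697). Here every fragmented, recovered value was below every control value, which held for 3.58% of all genes. The log2 difference was -0.02 (SE 0.32) for the other TNF receptor, Tnfrsf1b, -0.22 (SE 0.30) for the IL-1 binding chain Il1r1 and 0.18 (SE 0.58) for the decoy IL-1 receptor Il1r2. It was -0.36 (SE 0.23) for the IL-6 binding chain Il6ra and -0.21 (SE 0.29) for Il6st, which encodes gp130. The groups overlapped for these 5 receptors.

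Among the chemokines, Ccl2 (ENSMUSG00000035385), which encodes the monocyte attractant CCL2, had values of 116.1, 42.5 and 21.7 in fragmented, recovered 1 to 3 and of 32.0, 50.9 and 33.4 in controls 1 to 3. Ccl7 (ENSMUSG00000035373), a related ligand of the same monocyte receptor, had 95.4, 28.1 and 9.93 against 10.7, 28.3 and 16.7. For both genes fragmented, recovered 1 was the highest of the 6 mice and fragmented, recovered 3 the lowest. The log2 differences were 0.32 (SE 0.66) for Ccl2 and 0.78 (SE 0.85) for Ccl7, with limma adjusted p-values of 0.884 and 0.774. Without fragmented, recovered 1 they were -0.31 and -0.03, so the direction of each rested on that mouse.

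Ccl2 and Ccl7 lie next to each other on the chromosome in RefSeq's GRCm38.p6, followed by Ccl11, Ccl12 and Ccl8. Their values moved together over the 6 mice, with a Pearson r of 0.97 on the log2(value + 1) scale. The ratio of Ccl2 to Ccl7 values ran from 1.22 in fragmented, recovered 1 to 3.00 in control 1. Of the neighbours, which were picked by position after their values were seen, Ccl11, the eosinophil attractant eotaxin, was also highest in fragmented, recovered 1, at 1276 against 468.0 to 719.4 in the other mice. Ccl8 had 797.3 in that mouse and 203.2 to 676.0 in the others, while Ccl12 had 8.29 there and up to 22.4 in control 1. Fragmented, recovered 1 was also the library highest in muscle markers, at 65100. Its macrophage markers summed to 21300, inside the control range of 12810 to 24220, and Lyz2 made up 13273 of this. Cd68 (960.0), Trem2 (96.4) and Itgam (156.6, against 154.9 in control 2) were highest in this mouse, and the other macrophage markers were not. Its progenitor and fibroblast markers summed to 55160, beside 54630 in control 3. Of these, Pi16, Ly6a and Cd34 were highest in this mouse and the others were not. The part of these cells and tissues in the Ccl2 and Ccl7 values was not tested.

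Ccr2, the monocyte receptor for both ligands, had values of 717.4, 647.0 and 290.7 in the fragmented, recovered mice and 795.1, 1200 and 1270 in controls, a log2 difference of -1.05 (SE 0.37, unadjusted p = 0.0179, limma adjusted p = 0.697). Every fragmented, recovered value of Ccr2 was below every control value, which held for 3.58% of all genes, while the groups overlapped for its ligands. Of the 8 macrophage markers, 2 were higher and 6 lower, with a median log2 difference of -0.36, summed levels of 8071 to 21300 against 12810 to 24220, none at 0 in any library and none at an unadjusted p under 0.05. The part of macrophage number in the Ccr2 values was not tested.

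Cxcl1 (ENSMUSG00000029380), a neutrophil attractant, had values of 30.1, 12.9 and 19.9 in the fragmented, recovered mice and of 32.0, 4.52 and 10.0 in controls. The highest and the lowest value both came from controls, which spanned 7.07 times. The mean was 20.9 ± 8.64 (SD, n = 3) against 15.5 ± 14.5, a log2 difference of 0.72 (SE 0.81, limma adjusted p = 0.781). Cxcr2, the receptor for Cxcl1, was at 0 in fragmented, recovered 1 and control 1 and highest in control 2, at 341.4, where Cxcl1 was lowest.

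Cxcl12 (ENSMUSG00000061353), a chemokine that stromal cells make constantly and that holds leukocytes in tissue, had values of 5836, 4785 and 5709 against 4496, 7166 and 7797. The lowest and the highest 2 values were all in controls, and the fragmented, recovered mice lay between control 1 and the other controls. The mean was 5443 ± 573.7 (SD, n = 3) against 6486 ± 1753, a log2 difference of -0.22 (SE 0.28, limma adjusted p = 0.806). Its values spanned only 1.73 times over the 6 mice, against 22.7 times for Tnf. Its signalling receptor Cxcr4 had 92.3, 439.2 and 237.5 against 141.8, 1086 and 762.0, and its scavenging receptor Ackr3 had 983.9, 423.3 and 798.2 against 575.5, 607.0 and 954.7. Neither receptor separated the groups, with log2 differences of -1.20 (SE 0.76) and -0.00 (SE 0.35).

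Among the inhibitors, Nfkbia (ENSMUSG00000021025), which encodes IκBα, the protein that holds NF-κB in the cytoplasm, had values of 1357, 1723 and 1678 in fragmented, recovered 1 to 3 and of 1347, 1214 and 1479 in controls 1 to 3. Fragmented, recovered 2 and 3 lay above all controls, and fragmented, recovered 1 lay beside control 1. The mean was 1586 ± 199.8 (SD, n = 3) against 1347 ± 132.7, a log2 difference of 0.23 (SE 0.22, limma adjusted p = 0.757). It was the steadiest of the 10 genes, spanning 1.42 times over the 6 mice. With each library's trends on GC content and length removed, the difference turned to -0.20.

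Tnfaip3 (ENSMUSG00000019850), which encodes A20, a ubiquitin-editing enzyme that stops NF-κB signalling from the TNF receptor, had values of 131.7, 561.3 and 189.6 against 158.8, 1091 and 698.5. High and low libraries occurred in both groups. The mean was 294.2 ± 233.1 (SD, n = 3) against 649.4 ± 467.9, a log2 difference of -1.03 (SE 0.72, limma adjusted p = 0.703). The ratio of Nfkbia to Tnfaip3 values was 10.3, 3.07 and 8.85 in the fragmented, recovered mice and 8.48, 1.11 and 2.12 in controls, so these NF-κB inhibitors did not keep a fixed ratio.

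Lymphocytes also express Tnfaip3, and its values went with the markers of these cells. The 3 libraries with high B and plasma cell markers, fragmented, recovered 2 and controls 2 and 3, had the 3 highest Tnfaip3 values, between 561.3 and 1091. The libraries with low markers had 131.7 and 189.6 in fragmented, recovered 1 and 3 and 158.8 in control 1. All 8 B and plasma cell markers had lower mean log2 values after fragmentation and recovery (median log2 difference -2.00), with summed levels of 357.5 to 12530 against 594.7 to 31300, and none at an unadjusted p under 0.05. Pax5, a transcription factor that defines B cells, was at 0 in control 1 and in fragmented, recovered 1. Without fragmented, recovered 1 and control 2, the libraries of each group highest in muscle markers, the Tnfaip3 difference was -0.030. With the mean log2 level of the B cell markers as a covariate in limma, the Tnfaip3 difference was -0.33. Without control 1 it was -1.85 (limma adjusted p = 0.105, where 3.79% of all genes passed). Il1b had the same 3 libraries highest, and Cxcl1 had them lowest. Neutrophil markers and T and NK cell markers were also highest in these 3 libraries. So were the summed lymph node stroma markers, at 6545, 7486 and 3420 in fragmented, recovered 2, control 2 and control 3. In the other libraries they summed to between 38.82 and 622. Of these 6 markers, 2 had log2 differences above 0 and 4 below. Ccl21a, Ccl19, Glycam1 and Cr2 were each at 0 in at least 1 library. The parts of lymphocytes and of lymph node tissue in the Tnfaip3 values were not tested.

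**Figure D3:**
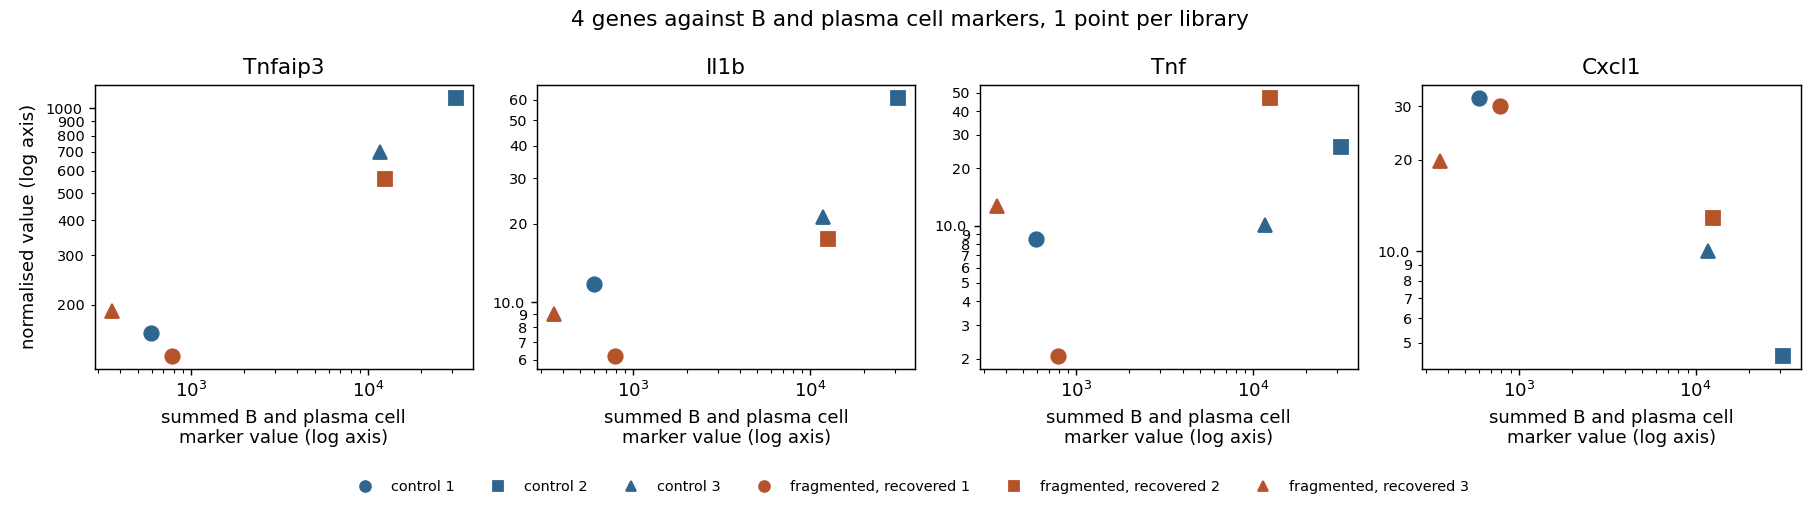
Normalised values of Tnfaip3, Il1b, Tnf and Cxcl1 (vertical log axes) against the summed value of 8 B and plasma cell markers (horizontal log axes), 1 point for each mouse. Tnfaip3 and Il1b are highest and Cxcl1 lowest in the 3 libraries whose markers summed to 11740 or more, and these come from both groups.

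Socs3 (ENSMUSG00000053113), the STAT3-induced inhibitor of gp130 and leptin receptor signalling, had values of 293.4, 311.0 and 227.5 in fragmented, recovered 1 to 3 and of 167.3, 235.1 and 96.9 in controls 1 to 3. Fragmented, recovered 1 and 2 lay above all controls, and fragmented, recovered 3 lay just below control 2. The mean was 277.3 ± 44.0 (SD, n = 3) against 166.5 ± 69.1, 1.67 times as high. Its log2 difference of 0.81 (SE 0.38) had the smallest unadjusted p of the 10 genes, 0.0592, and a limma adjusted p of 0.697. The difference lay between 0.47 and 1.10 with each mouse left out, lowest without control 3, and it was 0.25 with trends on GC content and length removed. The 3 libraries with the highest Socs3 values, fragmented, recovered 1 and 2 and control 2, were also the 3 highest in skeletal muscle markers, and control 3 was lowest in both. All 5 muscle markers had log2 differences above 0 (median 2.21), with sums of 367.5 to 65100 against 169.3 to 8686 and with Ckm, Myh4, Tnnt3 and Mb each at 0 in at least 1 library. Without fragmented, recovered 1 and control 2, the libraries of each group highest in these markers, the Socs3 difference was 1.06 (SE 0.44). Related inhibitors of cytokine receptor and STAT signalling, picked by role after their values were seen, had log2 differences of 0.64 for Socs1, 0.66 for Cish, 0.37 for Pias3 and 0.02 for Socs2, none at an unadjusted p under 0.05. They belong to the list of IL-6 family and JAK-STAT genes, of which 7 were higher and 12 lower, with a median of -0.05 that turned to 0.07 with values scaled by library totals.

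**Figure D4:**
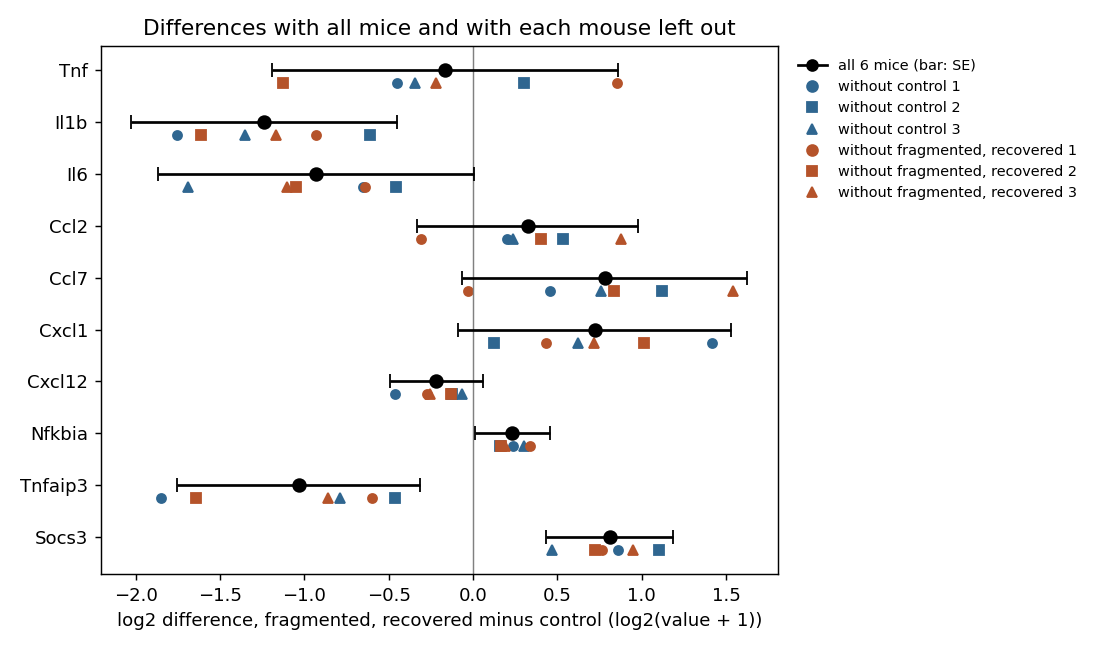
Log2 differences of the 10 genes, fragmented, recovered minus control, on the log2(value + 1) scale. Black points with SE bars use all 6 mice, and coloured points below them leave out 1 mouse each. Socs3, Nfkbia and Cxcl1 stay above 0 and Il1b, Il6, Cxcl12 and Tnfaip3 below 0 in these fits, while Ccl2, Ccl7 and Tnf cross 0.

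Genes with the most similar pattern over the 6 libraries were looked up for the 7 of the 10 whose mean value reached 20, among the 12937 to 12938 others whose mean reached 50. Tnfaip3 was most like Gm38244 (Pearson r = 0.9992) and Creg2 (0.998), and 388 genes had an r above 0.95 with it. Il1b was most like Cdca7 (0.9932) and Reps1 (0.9924), with 178 genes above 0.95. Socs3 was most like Bnip1 (0.9968) and Icam2 (0.9857), and only 10 genes passed 0.95. Nfkbia was most like Trak1 (0.9816) and Usp20 (0.9672), with 7 genes above 0.95. Ccl2 was most like Rad23b (0.9976) and Eif4a3 (0.9933), and Ccl7 was most like Fuca2 (0.9894) and again Eif4a3 (0.982). Pearson r does not take the size of a change into account. Rad23b ran only from 1648 to 2126 and Eif4a3 from 802.7 to 1104, against 21.7 to 116.1 for Ccl2 and 9.93 to 95.4 for Ccl7. Cxcl12 was most like Nacc2 (0.9948) and Nup133 (0.9925). With 6 libraries and so many genes, high values of r are reached by many genes, and these are descriptions of the libraries alone.

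The rest of the pathway was described by lists of genes, none of which held a gene past an FDR of 0.05 by limma. The lists were compared with all genes tested, whose median log2 difference was 0.02, with 3.24% of them higher and 2.14% lower at an unadjusted p under 0.05. The 13 NF-κB subunits, IκB proteins and IκB kinases had 4 members higher and 9 lower, with a median of -0.18 and none at an unadjusted p under 0.05. In each list the 2 members with the highest mean normalised value, which is not corrected for gene length, are named. Here these were Nfkb1, the p50 precursor, at -0.18 (SE 0.28), and Rela, the p65 subunit, at 0.21 (SE 0.22). The 18 TNF receptor and signalling genes had 4 higher and 14 lower, with a median of -0.29 and none at an unadjusted p under 0.05. Rnf11 and Tax1bp1, which encode partners of A20, had its highest mean values, with log2 differences of -0.44 (SE 0.27) and -0.23 (SE 0.22). Tnfrsf1a, already described, was 1 of the 4 higher members, and per kb of exon it was above Tax1bp1, at 898.6 against 418.2.

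Of 18 genes of the IL-1 family and its receptors, 6 were higher and 12 lower, with a median of -0.21. Those at an unadjusted p under 0.05 were Il1rap, already described, and Il1rl1, the receptor for IL-33, at -0.68 (SE 0.29). The highest mean values were those of Irak1 and Irak2, kinases of the IL-1 receptor complex, at -0.06 (SE 0.21) and 0.34 (SE 0.31). In the IL-6 and JAK-STAT list the members with the highest mean values were Jak1, a kinase bound to gp130, at -0.44 (SE 0.32), and Il6st at -0.21. No member of that list had an unadjusted p under 0.05.

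Chemokines other than the 4 described had a median of 0.62 over 28 tested genes, 21 higher and 7 lower. The list held genes with few reads, among them Ccl12, with 0 to 27 reads for each library. At an unadjusted p under 0.05 were Cxcl14, an abundant epithelial and fibroblast chemokine, at 1.36 (SE 0.60), and the platelet chemokine Ppbp, at -1.38 (SE 0.59). Cxcl14 had values of 923.7, 1650 and 2320 against 1703, 284.9 and 432.2, so control 1 lay with the fragmented, recovered mice. Mammary epithelium markers had the same split, with sums of 22790 to 31780 in those 4 libraries and of 7024 and 8594 in controls 2 and 3. The part of epithelium in the Cxcl14 values was not tested. The members with the highest mean values, Ccl6 and Ccl9, had log2 differences of 0.27 (SE 0.56) and -0.57 (SE 0.47). Per kb of exon Ccl8 was above Ccl9, at 997.4 against 734.9.

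Chemokine receptors had a median of -0.84 over 16 genes, 2 higher and 14 lower, so that the medians of ligands and receptors lay on opposite sides of 0. With trends on GC content and length removed, the median was 0.44 for ligands and -0.76 for receptors. Only Ccr2 had an unadjusted p under 0.05. Most genes of this list belong to leukocytes, and the median differences were -2.00 for markers of the B lineage, -0.61 for those of T and NK cells and -2.86 for neutrophil markers. Ccr2 and Ackr3 had the highest mean values of the list, 820.1 and 723.8, while per kb of exon Cxcr4 was above both, at 254.3 against 121.3 and 216.2. Cxcr4 was named here as the receptor for Cxcl12 after its values were seen. It followed the B cell markers, with 439.2 to 1086 in the 3 libraries high in them and 92.3 to 237.5 in the others. The parts of lymphocytes and of lymph node tissue in the list were not tested.

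Inhibitors of inflammatory signalling and message stability other than the 3 described had a median of 0.39 over 18 genes, 13 higher and 5 lower, and 0.14 with trends on GC content and length removed. The gene at an unadjusted p under 0.05 was Zfp36, whose product destroys Tnf and other AU-rich messages, with values of 871.9, 1076 and 1198 against 616.0, 427.3 and 433.3 and a limma adjusted p of 0.697. The members with the highest mean values were Tsc22d3, a glucocorticoid-induced inhibitor of NF-κB, at 0.56 (SE 0.33), and Zfp36l2 at -0.20 (SE 0.24). Many genes of this list also stand in another list described here, so its counts are not separate from theirs. Zfp36, Dusp1, Atf3 and Ier3 are also among the immediate early genes. Socs1, Cish, Irak3, Sigirr, Il1rn, Tnip1, Cyld and Nfkbie are also in the lists above. Induced inflammatory target genes had a median of 0.22 over 17 genes, 13 higher and 4 lower. At an unadjusted p under 0.05 were Cebpb, a transcription factor of the acute response and of fat cell formation, at 1.48 (SE 0.54), the adhesion molecule Vcam1, at -1.25 (SE 0.49), and the protease gene Mmp9, at -0.75 (SE 0.33). Control 1 had 1022 for Cebpb and 1331 for Vcam1, inside the fragmented, recovered ranges of 781.7 to 2063 and 915.5 to 1844. The groups thus overlapped for Cebpb and Vcam1. They did not overlap for Mmp9, as for 8.59% of all genes. Hp, which encodes haptoglobin, had the highest mean value, with 18708 in fragmented, recovered 1 against 4398 to 4963 in the other mice, with a difference of 0.67 (SE 0.48).

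Immediate early genes, which share induction by stress and growth signals with Nfkbia, Tnfaip3 and Socs3, had a median of 1.03 over 17 genes, with 14 higher, 3 lower and 9 at an unadjusted p under 0.05. Their median was 0.57 with trends on GC content and length removed. The smallest unadjusted p-values after that of Zfp36 were those of Klf2, with a log2 difference of 0.95 (SE 0.26), Jun at 1.04 (SE 0.29), Fos at 1.99 (SE 0.59), Klf4 at 1.07 (SE 0.32) and Junb at 1.53 (SE 0.51). The members with the highest mean value were Klf6, at -0.15 (SE 0.28), and Klf2. Beside these, the log2 difference was 0.81 for Socs3, 0.23 for Nfkbia and -1.03 for Tnfaip3.

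**Figure D5:**
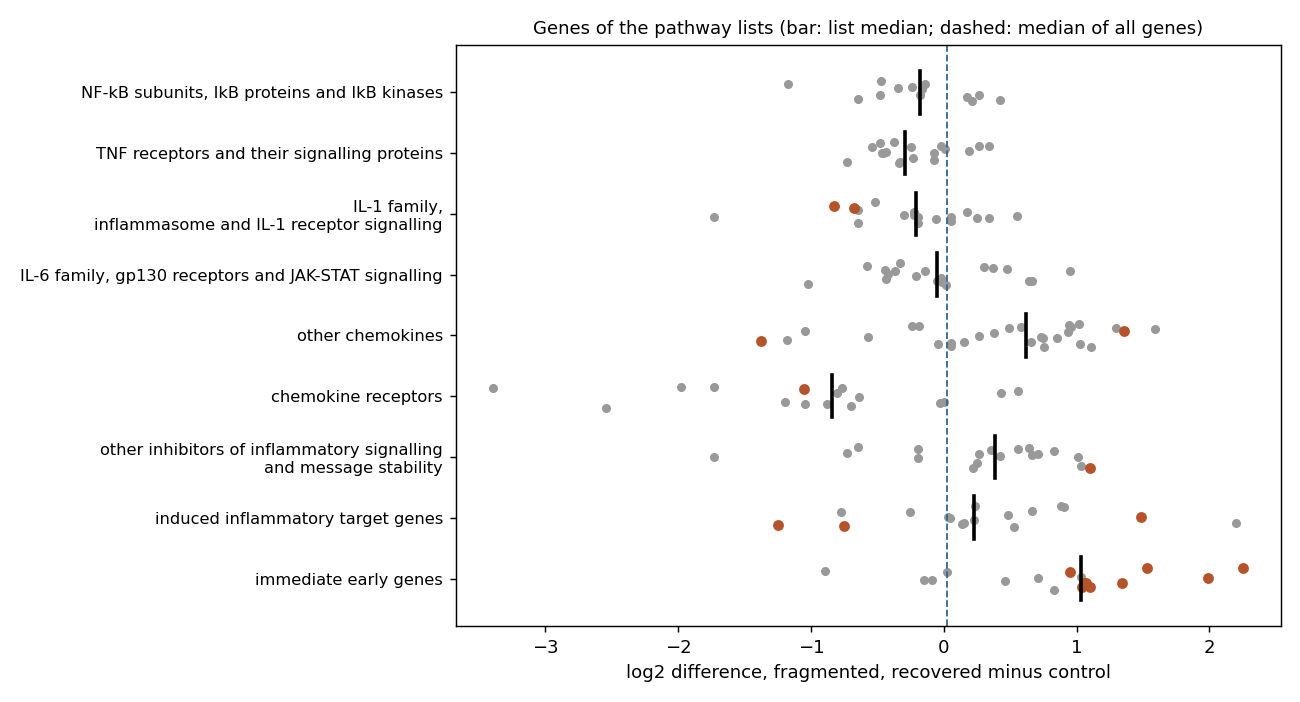
Log2 differences, fragmented, recovered minus control, of each tested gene in 9 lists, some of which share genes. Black bars are list medians, the dashed line is the median of all genes at 0.02, and orange points have an unadjusted p under 0.05. Chemokine receptors lie mostly below 0 with a median of -0.84, and other chemokines mostly above with a median of 0.62.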

How the data were processed

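RNA from the inguinal fat of 6 mice was sequenced, 1 library for each mouse. Per the submitters' processing notes, HISAT2 2.0.5, featureCounts 1.5.0-p3 and CASAVA were used with build mm8. The authors deposited a signal value for each gene, which behaves as reads divided by 1 size factor for each library: when scaled to the smallest nonzero value of its library, 100% of values came out whole, within 0.02. Coordinates and sequences here come from RefSeq on GRCm38.p6 and were not joined to the deposited values by position. Symbols came from an identifier table, with 33 identifiers unmatched.

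The fixed design named edgeR as the main test only for raw counts, so limma 3.58.1 (R 4.3.3) with an intensity trend was run on log2(value + 1), which understates changes of low genes, for 22290 genes with a mean of at least 1. Benjamini-Hochberg adjustment was used, with an FDR threshold of 0.05. edgeR 4.0.16, on 16141 genes, and DESeq2 1.42.0 were run on recovered reads, and both, like limma, called 0 genes. Other alternatives were library scaling, pseudocount, filter, limma-voom with quality weights, replicate block, left-out libraries and a B cell marker covariate. The 10 genes and all lists were chosen with earlier results of these data known. Genes named from a list were its members with the smallest unadjusted p under 0.05, up to 6, and the 2 with the highest mean value. The text marks genes named outside this rule. Cxcr1 was not in the table. The level of 1 marker gene is not reported here.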

Additional observations from a re-analysis of the deposited data

How the results depend on the processing

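All 10 genes stayed short of an FDR of 0.05 in each of the 20 alternatives that tested them, and 183 of 197 values kept their direction. Il1b, Il6, Cxcl12, Tnfaip3 and Socs3 kept it throughout, but some of their differences came close to 0. Tnfaip3 had -0.030 without both libraries highest in muscle markers, and Cxcl12 had -0.066 without control 3. Socs3 had 0.080 with trends on GC content and length removed and control 1 left out. Tnf turned to 0.42 with the B cell covariate, 0.48 with DESeq2, 0.52 with edgeR, 0.18 with limma-voom and quality weights, 0.014 with a pseudocount of 5, 1.32 without both libraries highest in muscle markers, 0.30 without control 2 and 0.85 without fragmented, recovered 1. Without both muscle-rich libraries Ccl2 had -0.10 and Cxcl1 -0.16, and without fragmented, recovered 1 Ccl2 had -0.31 and Ccl7 -0.031. With each mouse left out in turn, Tnf ran from -1.13 to 0.85, Ccl2 from -0.31 to 0.88 and Ccl7 from -0.031 to 1.54. Once trends on GC content and length were removed, Nfkbia had -0.20, and -0.38 when control 1 was also left out. These causes were not tested. Scaling by library totals moved the median log2 difference of all genes from 0.02 to 0.14, and of the 9 pathway lists the IL-6 and JAK-STAT list alone changed the sign of its median under a scaling alternative, to 0.07. Both settings with trends removed were chosen after seeing the data.

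With all 6 mice, limma called 0 genes over all 22290, but 1023 did with limma-voom and quality weights. With 1 mouse left out the count ran from 0 to 844, the 844 without control 1, and 40 passed when trends were also removed. With the replicate number as a block 0 passed, with 2676 at an unadjusted p under 0.05 against 1201. Same-numbered mice correlated at 0.177, 0.393 and 0.042 in their deviations from group means, and differently numbered mice at -0.356 to 0.208. Fragmented, recovered 1 and 2 correlated best with the control of their own number, and fragmented, recovered 3 with control 1. Whether the numbers pair the mice cannot be told from these values. The low reads of Il6, Tnf, Il1b and Cxcl1 limit what a difference in them can show.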
